A study of Drosophila melanogaster with 53 samples.

Results

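The noncoding RNA genes described here are those that FlyBase named only by a CR number, the prefix under which transcribed genes without an evident protein product are listed. A gene counted as a member when its name was CR followed by digits alone and when the larger of its FPKM values in DMSO and in 20E was at least 1. FPKM is the number of sequenced fragments scaled to transcript length and to library size. Of the 15598 genes in the table, 622 carry such a name and 108 of them passed, or 17.4%. The members were thus chosen by their measured levels in these same libraries, so that counts and medians over them are given as descriptions, without a test.

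The RNA was polyA RNA of S2 Schneider cells, a line of hemocyte-like cells derived from *Drosophila* embryos, which received no dsRNA for this assay. Cells were treated for 1 h with 0.3 μM 20-hydroxyecdysone (20E), the steroid hormone of moulting and metamorphosis, or with DMSO, its solvent. The sample labels list 2 libraries per condition, while the table holds 1 FPKM per gene and condition with a lower and an upper bound, all of them the authors' values. No SD between replicates exists for these values, and no test between the conditions was run. The values of a gene are called apart below when the lower bound of one lies above the upper bound of the other, and the level of confidence of these bounds is not named in the table.

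Long noncoding RNAs are transcribed by RNA polymerase II, and many are capped, spliced and polyadenylated like mRNAs. Some serve as precursors from which Drosha and Dicer cut miRNAs that guide silencing complexes, some fold into long hairpins that feed the endogenous siRNA pathway, and some run antisense to a protein-coding gene. 20E acts through the nuclear receptor EcR with its partner Usp, which activates a first wave of early genes within the hour, and these in turn drive later genes.

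The table gives no read counts, so the depth behind a value is unknown and precision is taken from the bounds. Hemocyte markers were present in both conditions, with 8 of the 9 that are in the table at 1 FPKM or more and a summed FPKM of 437 in DMSO and 436 in 20E. Of the markers, srp, a GATA factor of blood cells, stood at 106 FPKM in DMSO and Hml, hemolectin, at 0.104 FPKM. The phagocytosis receptor eater was the 1 hemocyte marker with bounds apart, at 8.20 FPKM (bounds 6.21 to 10.2) in DMSO and 13.8 FPKM (bounds 10.6 to 17.0) in 20E. Of 7 markers of neurons, muscle, fat body and germ cells, 1 reached 1 FPKM (elav, 3.63 FPKM in DMSO against 3.66 FPKM in 20E), and Lsp1alpha was listed at 0. The 15 genes of a list of known 20E targets were all more than 2-fold higher in 20E and had bounds apart. That list was drawn up with earlier results of these data known, so it is no independent evidence.

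The 4 most abundant CR genes carried 58.7% of the summed FPKM of the members in DMSO and 53.8% in 20E. CR43264 had the highest level in both conditions, 759 FPKM in DMSO (bounds 594 to 924) and 927 FPKM in 20E (bounds 720 to 1134). CR42862, a spliced lncRNA of up to 5480 bases in RefSeq, was at 531 FPKM (bounds 402 to 661) and 530 FPKM (bounds 401 to 659). The bounds of these genes overlapped in DMSO and lay apart in 20E. CR40469 followed with 432 FPKM in DMSO (bounds 320 to 544) and 379 FPKM in 20E (bounds 279 to 479). CR43883 was at 303 FPKM in DMSO (bounds 238 to 368) and 327 FPKM in 20E (bounds 257 to 398), so that its bounds overlapped those of CR40469 in both conditions. All 4 lay well above 26.7 FPKM, the median in DMSO over all 7703 genes that reach 1 FPKM.

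**Figure D1:**
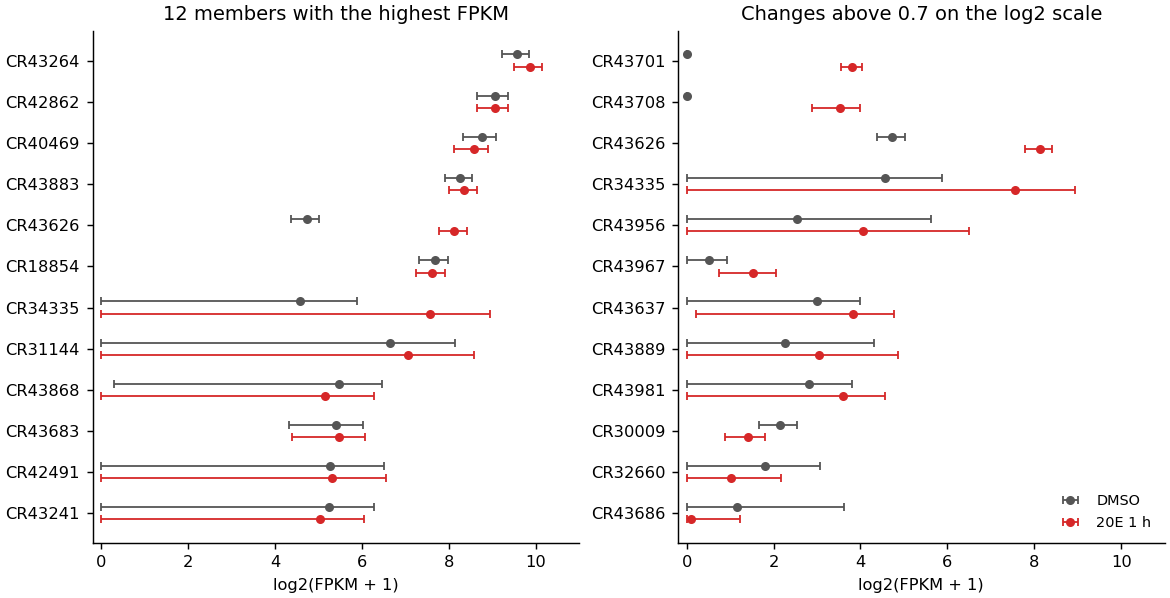
Level of the 12 CR genes with the highest FPKM (left) and of the 12 with a change above 0.7 in size on the log2 scale (right), as log2(FPKM + 1) in DMSO (grey) and 20E (red). Points are the deposited values and bars run from the lower to the upper bound. CR43626 appears on both sides with bars far apart. On the left CR34335, CR31144, CR42491 and CR43241 have bars that start at 0 in both conditions, and CR43868 in 20E. On the right this holds in both conditions for CR34335, CR43956, CR43889, CR43981, CR32660 and CR43686, and in DMSO for CR43637 and CR43967. CR43701 and CR43708 are at 0 in DMSO.

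Below the first group, CR18854 stood at 206 FPKM in DMSO (bounds 158 to 253) and 195 FPKM in 20E (bounds 150 to 240). RefSeq lists it as a hairpin RNA. CR43626, described below, reached its place among the 12 highest in 20E. The locus of CR42862 also holds CG33229 at 65.5 FPKM in DMSO (bounds 0 to 156) and 64.0 FPKM in 20E, and that of CR18854 holds CG4036 at 63.1 FPKM and 58.3 FPKM and IP3K1, an inositol trisphosphate kinase gene, at 17.1 FPKM and 15.6 FPKM. Wide bounds were found for several of the other genes among the 12, with CR34335 described below. CR31144, antisense to the ribosomal protein gene RpL3, was at 98.9 FPKM in DMSO (bounds 0 to 280) and 133 FPKM in 20E (bounds 0 to 381). CR42491 shares the locus of RpL22 (922 FPKM in DMSO, 902 FPKM in 20E) and was at 37.4 FPKM (bounds 0 to 90.2) and 38.9 FPKM (bounds 0 to 92.8). CR43241 was at 37.1 FPKM (bounds 0 to 76.5) and 31.7 FPKM (bounds 0 to 65.1), in one locus with CG1832 (65.5 FPKM in DMSO, 61.7 FPKM in 20E), CG42748 (32.5 FPKM, 30.2 FPKM) and CG34137 (1.04 FPKM, 1.71 FPKM). For these 3 genes the bounds do not separate a high level from 0 in either condition. CR43868 was at 43.6 FPKM in DMSO (bounds 0.233 to 87.0) and 34.5 FPKM in 20E (bounds 0 to 76.7), and CR43683 had narrower bounds at 41.5 FPKM (bounds 19.0 to 64.1) and 43.1 FPKM (bounds 20.1 to 66.2). The locus of CR43683 also holds CG4658 at 36.8 FPKM and 39.1 FPKM and CG5850 at 35.5 FPKM and 36.6 FPKM.

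Most members were far lower. The median was 6.86 FPKM in DMSO against 7.36 FPKM in 20E, against 26.7 FPKM and 27.1 FPKM over the 7703 genes. At least 10 FPKM in DMSO was reached by 45 members (41.7%) and by 76.6% of the 7703 genes. Of the 622 CR genes, 391 were listed at 0 in both conditions and 123 lay between 0 and 1 FPKM. The members just inside the limit were CR43845 (1.04 FPKM as the larger value), CR43460 (1.04 FPKM) and CR43916 (1.07 FPKM), and those just outside were CR43906 (0.969 FPKM), CR43820 (0.968 FPKM) and CR43866 (0.966 FPKM). All of these had a lower bound of 0 in both conditions, except CR43866 with a lower bound of 0.117 in 20E. CR43845 shares its locus with Itp-r83A, the gene of the inositol trisphosphate receptor (16.9 FPKM in DMSO, 16.0 FPKM in 20E), and CR43460 with rdx (33.6 FPKM, 30.9 FPKM).

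By identifier or by CR number, 105 of the 108 members were found in RefSeq (Release 6). RefSeq lists 57 as lncRNA, 40 as antisense RNA, 4 as other ncRNA, 2 as pseudogenes (CR42875 and CR43727), 1 as snRNA (CR43708, named there snRNA:LU) and 1 as protein-coding (CR43845, now CG43845). CR40712, CR41510 and CR42745 were not found. In groups by role, 6 members carry a miRNA stem-loop in an exon, 3 are hairpin RNAs, 40 are antisense RNAs, 2 are short RNAs (CR43701 and CR43708) and 51 are other lncRNAs. The other lncRNAs had a median of 9.05 FPKM in DMSO and the antisense RNAs of 6.22 FPKM, and both ranged down to about the limit of the rule.

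As a group the members were short. The longest RefSeq transcript had a median of 953 bases over the 105 members, from 93 to 15466 bases, against 1958 bases over the 7364 genes at 1 FPKM or more with a RefSeq transcript. They had a median of 2 exons against 4, and 37 of them (35.2%) had a single exon in RefSeq, compared with 9.59% of those genes. Their GC content was lower, with a median of 44.1% against 48.9%. Arm 3L held 32 of the members (29.6%, against 19.1% of the 7703 genes), and 21 were on X (19.4% against 17.3%). No test of these differences was made.

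The locus assigned to a gene in the table is that of a whole cluster of overlapping genes, and 84 of the 108 members (77.8%) share it with at least 1 other gene. The same holds for 46.6% of the 7703 genes. The strand setting of the libraries is not given in the sources used here, so fragments of overlapping genes on opposite strands cannot be told apart with certainty. In DMSO 61 members had a locus partner with a higher FPKM, and for 21 of them that partner was more than 10 times higher. Both counts include CR43701 and CR43708, which are listed at 0 in DMSO. For 14 members all partners were under 1 FPKM.

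Among the members, bounds were wide where a locus was shared. The excess of the upper bound over the FPKM in DMSO had a median of 104% where a member shares its locus and of 42.8% over the 24 members that are alone. Among the 7703 genes these medians were 31.3% and 22.6%. The lower bound was 0 in both conditions for 38 of the 84 members with a shared locus (45.2%) and for 1 of the 24 others (4.17%), CR43387. Members are also lower than the 7703 genes, and at 10 FPKM or more in DMSO the medians were 65.3% over 38 members that share a locus and 25.9% over 7 that do not. At that level the difference was small over all genes, with medians of 27.8% over 2681 that share a locus and 22.1% over 3217 that do not.

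**Figure D2:**
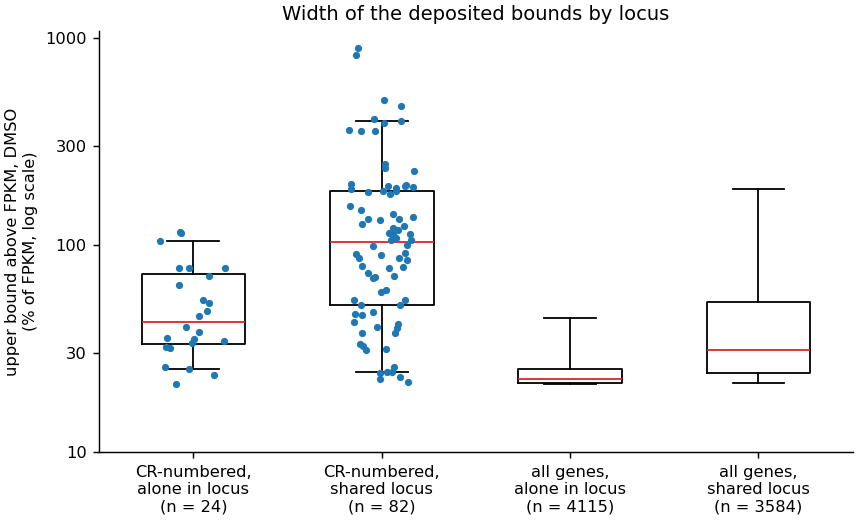
Distance from FPKM to the upper bound in DMSO, in percent of FPKM on a log scale, for CR-numbered members and for all genes at 1 FPKM or more, by whether the deposited locus is shared. Boxes show the quartiles and the median (red), whiskers the 5th and 95th percentiles and points the members. The median is 42.8% for members alone in their locus and 104% for members that share it, and CR43701 and CR43708 are left out because they are listed at 0 in DMSO.

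In response to 20E most members stayed close to the diagonal, though they spread more widely than the 7703 genes. The change, log2 of the ratio of FPKM + 1 in 20E to that in DMSO, had a median of -0.075, with quartiles of -0.21 and 0.14. Over the 7703 genes the median was 0.0022 and the quartiles -0.082 and 0.082. The size of the change was at most 0.5 for 93 members (86.1%) and for 97.3% of the 7703 genes. The members also had lower levels and wider bounds, with a median excess of the upper bound in DMSO of 79.1% against 24.4%. The part of level and precision in their wider spread was not tested. In 20E the FPKM was higher for 44 members (40.7%) and lower for 64, and it was higher for 50.9% of the 7703 genes. Since 8 members passed the limit in DMSO only and 8 in 20E only, these had to differ in one direction, and 92 passed in both.

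By a ratio of FPKM + 1 above 2, 6 of the 108 members (5.56%) were higher in 20E, where 0.597% of the 7703 genes were. These are CR43626, CR43701, CR43708, CR34335, CR43956 and CR43967. The ratio was under 0.5 for 1 member, CR43686 (0.926%, against 0.0649% of the genes). Bounds were apart with the higher value in 20E for CR43626, CR43701 and CR43708 (2.78%, against 0.831% of the genes), and the lower value was in 20E with bounds apart for 0 members (0.143% of the genes). Because the rule used the same values, nothing is read from these shares. The 6 higher members and CR43686 all share a deposited locus with another gene, as do 77.8% of the members. For CR43626 and CR43967 the only partner was listed at 0 in both conditions.

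**Figure D3:**
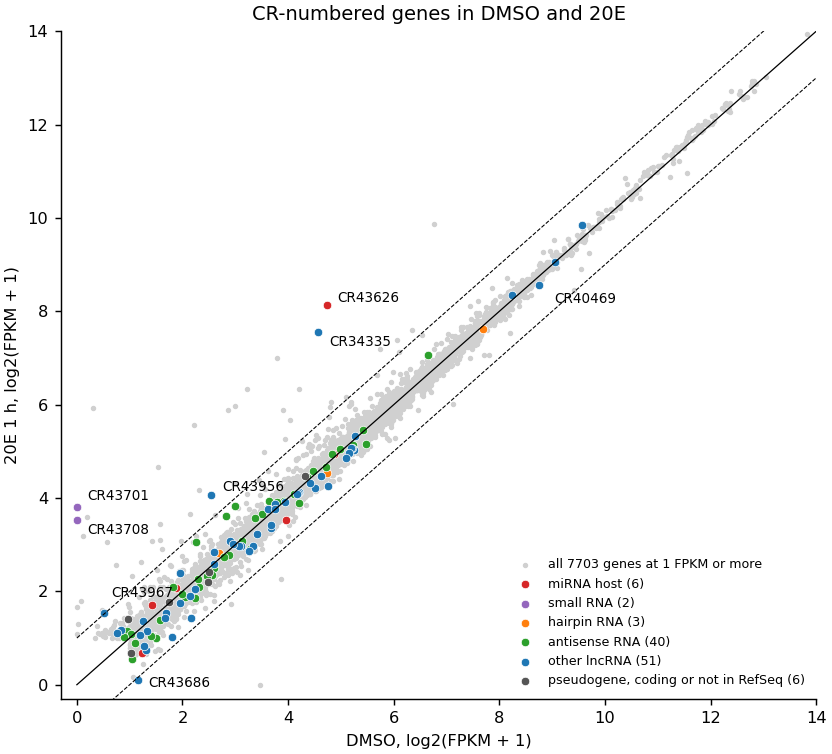
Level in DMSO (x) and in 20E (y) of the 108 members, as log2(FPKM + 1), coloured by their RefSeq group, over all 7703 genes with a larger FPKM of at least 1 (grey). The solid line marks equal levels and the dashed lines a ratio of FPKM + 1 of 2 and of 0.5. CR43626 and CR34335 lie well above the upper dashed line at DMSO levels of 25.6 and 22.8 FPKM, and CR43701 and CR43708 lie on the y axis because they are listed at 0 in DMSO.

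CR43626 was the only member that was above 0 in DMSO and had bounds apart. It was at 25.6 FPKM in DMSO (bounds 19.8 to 31.3) and 279 FPKM in 20E (bounds 219 to 339), a ratio of 10.9 without a pseudocount and a change of 3.40 on the log2(FPKM + 1) scale. With that it went from rank 21 to rank 5 among the members. Its deposited model, on 3L from 3249373 to 3251468 in the unnamed build of the table, is a single transcript, while RefSeq lists 3 transcripts of 409 to 4915 bases, so that isoforms are not resolved in its value. The locus is shared only with mir-282, which lies inside it and is listed at 0 in both conditions.

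By deposited positions, the nearest genes at 1 FPKM or more on either side of CR43626 were not past a ratio of FPKM + 1 of 2. On the left CG43389, 327 bases away, was at 0.450 FPKM in DMSO against 1.22 FPKM in 20E. Without the pseudocount CG43389 was past a ratio of 2. On the right ckd, 6409 bases away, was at 8.82 FPKM and 8.64 FPKM. The nearest other gene past a ratio of FPKM + 1 of 2 or under 0.5 was CG32486, at a distance of 179 kb.

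RefSeq (Release 6) places the mir-282 stem-loop inside the exon of CR43626 on the same strand, and starts the gene at 3L:3249340. The window from 250 bases before to 50 bases after this start, chr3L:3249090-3249389 on the plus strand, is shown because CR43626 had the largest change among members that were above 0 in both conditions. Capitals mark TATAAA on the plus strand and GAGAG on either strand.
CR43626 promoter window: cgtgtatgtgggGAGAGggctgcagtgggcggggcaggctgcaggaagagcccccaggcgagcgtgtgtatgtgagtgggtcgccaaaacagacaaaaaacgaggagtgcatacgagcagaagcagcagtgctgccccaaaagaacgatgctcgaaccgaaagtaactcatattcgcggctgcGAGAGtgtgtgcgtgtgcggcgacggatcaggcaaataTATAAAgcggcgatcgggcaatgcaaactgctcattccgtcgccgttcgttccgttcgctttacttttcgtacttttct

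A TATAAA run stood shortly before the annotated start of CR43626, and GAGAG, the core that GAGA factor binds, occurred on the plus strand at 2 positions. Neither AGGTCA, the half-site of nuclear receptors, nor the inverted repeat of EcR and Usp was found in these letters, from which nothing follows about binding elsewhere. Over the 105 members with a window of this kind, GAGAG on either strand was in 41.9%, against 27.2% of 7339 windows of genes at 1 FPKM or more and 29.7% of 16835 windows in all. TATAAA on the plus strand was in 23.8% of the members' windows, 30.0% of those of expressed genes and 31.1% of all. TCAGT on the plus strand, a core of the initiator, was in 26.7%, 29.7% and 34.5%. AGGTCA on either strand was in the windows of 4 members (3.81%, against 5.67% of expressed genes and 5.95% of all). The 4 are CR43683, CR42491, CR43474 and CR43148, none of which was past a ratio of 2. The inverted repeat was in 0 members' windows and in 0.0772% of all.

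In DMSO CR43701 and CR43708 had a value of 0 and bounds of 0. Against such a value each lower bound above 0 is apart, and no fold can be given. In 20E CR43701 was at 13.0 FPKM (bounds 10.7 to 15.3) and CR43708 at 10.6 FPKM (bounds 6.34 to 14.8). Both are very short genes, of 93 and 116 bases in RefSeq, and are printed here whole because they are short enough to show entire. RefSeq (Release 6) places CR43701 at chr3L:1488739-1488831 and CR43708 at chr2L:3046765-3046880, both on the plus strand, and names them sncRNA:CR43701 and snRNA:LU.
CR43701: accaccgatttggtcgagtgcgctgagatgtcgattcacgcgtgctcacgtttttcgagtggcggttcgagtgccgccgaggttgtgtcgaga
CR43708: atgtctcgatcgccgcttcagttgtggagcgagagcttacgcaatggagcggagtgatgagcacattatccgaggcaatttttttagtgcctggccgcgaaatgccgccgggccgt

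Genes of this length had almost no values in the table. Of 678 genes whose longest RefSeq transcript is at most 120 bases, 675 were listed at 0 in both conditions and 0 were above 0 in both. The 3 others were CR43701, CR43708 and tRNA:CR31506, and the last went the other way, with 10.1 FPKM in DMSO (bounds 2.36 to 17.9) and 0 in 20E. These 3 were also the only genes of any length that were listed at 0 in one condition and at 5 FPKM or more in the other. Among 405 genes of over 120 and up to 300 bases 371 were at 0 in both, and among 13844 longer genes 2554 were. A listed 0 is not shown to be an absence of RNA, and the part of transcript length in the values of CR43701 and CR43708 was not tested.

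No partner in their loci had such a difference. CR43701 shares its locus with stet, a rhomboid protease gene (0.100 FPKM in DMSO against 0.134 FPKM in 20E), with robl62A (0.0219 FPKM and 0), and with a snoRNA gene listed at 0. CR43708 lies with v(2)k05816 (0.311 FPKM and 0.250 FPKM) and with snRNA:U5:23D, a gene of the spliceosomal U5 RNA, listed at 0 in both conditions. The nearest genes beyond these loci included Ptp61F, a tyrosine phosphatase, at 61.3 FPKM in DMSO against 66.9 FPKM in 20E next to CR43701. Next to CR43708 CG3523 was at 165 FPKM and 158 FPKM.

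CR34335 had the next largest change, 2.99 on the log2(FPKM + 1) scale, but its bounds overlapped. It was at 22.8 FPKM in DMSO (bounds 0 to 58.2) and 189 FPKM in 20E (bounds 0 to 493). Its deposited locus spans 66378 bases with 4 other genes, of which CG2875 was the highest at 25.3 FPKM and 25.0 FPKM and CG32791 next at 3.08 FPKM and 2.84 FPKM. In sequence CR34335 repeats another member. Of its 361 bases in RefSeq a stretch aligns over 214 columns with the whole of CR40469 on the same strand, with 212 identical columns, 1 mismatch and 1 gap (99.1% identity). Both genes are on X in Release 6, CR40469 at chrX:122493-122706 on the plus strand and CR34335 at chrX:3545750-3546110 on the minus strand. CR40469 is shown whole and CR34335 up to base 250 (chrX:3545861-3546110), both as transcribed, with capitals for runs of at least 20 bases shared by both.
CR40469: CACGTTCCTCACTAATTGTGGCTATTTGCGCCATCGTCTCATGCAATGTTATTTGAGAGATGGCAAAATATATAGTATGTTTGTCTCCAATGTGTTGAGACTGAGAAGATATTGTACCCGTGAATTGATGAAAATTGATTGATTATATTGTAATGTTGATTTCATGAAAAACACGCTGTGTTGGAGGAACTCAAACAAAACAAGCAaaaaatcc
CR34335: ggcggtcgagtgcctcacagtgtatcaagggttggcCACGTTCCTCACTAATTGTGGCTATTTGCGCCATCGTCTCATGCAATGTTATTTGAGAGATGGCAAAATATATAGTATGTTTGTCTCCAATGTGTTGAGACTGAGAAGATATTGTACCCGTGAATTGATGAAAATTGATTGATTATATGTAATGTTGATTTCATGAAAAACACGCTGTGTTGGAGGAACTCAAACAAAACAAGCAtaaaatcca

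Fragments from the shared stretch cannot be placed by sequence alone, and how the authors split such fragments is not given in the sources used here. CR40469 was lower in 20E while CR34335 was higher. The FPKM of both together was 455 in DMSO and 568 in 20E, a ratio of 1.25. CR40469 carried most of that sum, with 432 FPKM in DMSO and 379 FPKM in 20E. FPKM summed over genes of unlike length do not count fragments. The part of the shared stretch in the difference of CR34335 was not tested.

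At a lower level, CR43157 and CR32660 also repeat each other in sequence. They stand next to each other on X and share runs of 50 bases. CR43157 was at 2.88 FPKM in DMSO (bounds 0.640 to 5.12) and 4.22 FPKM in 20E (bounds 1.496 to 6.94). CR32660, wholly inside the exons of Sclp on the same strand (23.6 FPKM in DMSO, 17.8 FPKM in 20E), was at 2.49 FPKM in DMSO (bounds 0 to 7.42) and 1.02 FPKM in 20E (bounds 0 to 3.49). The differences had opposite signs, and their summed FPKM was 5.37 and 5.24. In all, 7 of the 105 members contain 50-base words that occur elsewhere in the genome.

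**Figure D4:**
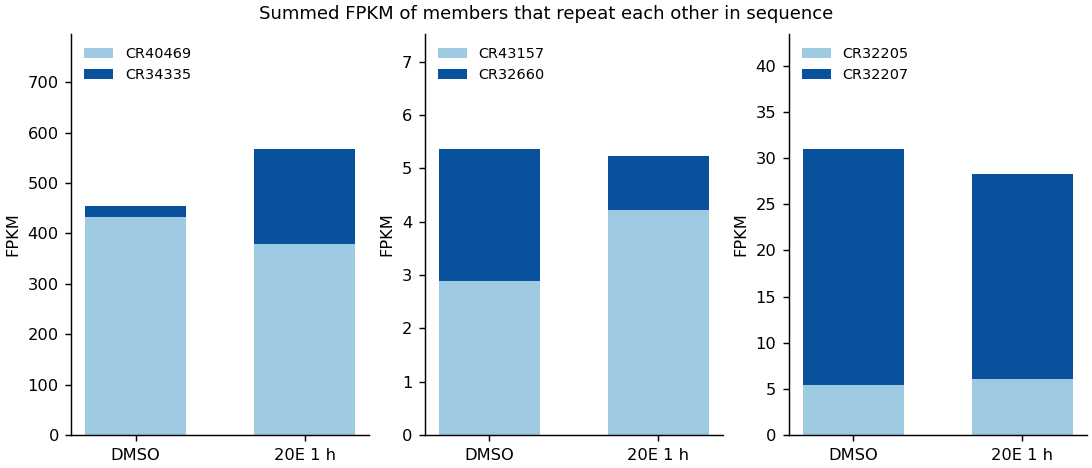
Summed FPKM in DMSO and in 20E of the 3 pairs of members that repeat each other in sequence, with the share of each gene in the bar. The bars of CR40469 with CR34335 reach 455 and 568 FPKM, those of CR43157 with CR32660 5.37 and 5.24 FPKM, and those of CR32205 with CR32207 31.0 and 28.3 FPKM.

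The other members past a ratio of 2 were low or had wide bounds. CR43956, a single RNA of 201 bases in the locus of CG32000, was at 4.85 FPKM in DMSO (bounds 0 to 48.3) and 15.7 FPKM in 20E (bounds 0 to 90.0). CG32000 itself was at 52.0 FPKM and 48.0 FPKM. CR43967 was at 0.425 FPKM in DMSO (bounds 0 to 0.909) and 1.90 FPKM in 20E (bounds 0.667 to 3.14). It passed the limit only in 20E, and its partner CG34031 was listed at 0. The bounds of neither gene were apart between the conditions.

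Next in size came 3 antisense RNAs, with ratios between 1.72 and 1.79. CR43637 was at 6.97 FPKM in DMSO (bounds 0 to 14.9) and 13.2 FPKM in 20E (bounds 0.165 to 26.3). It runs antisense to Mct1, a monocarboxylate transporter gene, which was itself at 50.1 FPKM (bounds 39.1 to 61.1) and 73.9 FPKM (bounds 57.6 to 90.1), and CG18031 in the same locus was at 0.968 FPKM and 2.34 FPKM. CR43889 was at 3.77 FPKM (bounds 0 to 18.8) and 7.32 FPKM (bounds 0 to 28.3) in one locus with Mi-2, a chromatin remodeller gene (84.6 FPKM, 86.2 FPKM), Su(Tpl) (37.3 FPKM, 38.1 FPKM) and CR32218 (9.68 FPKM, 8.402 FPKM). CR43981 was at 6.07 FPKM (bounds 0 to 13.0) and 11.2 FPKM (bounds 0 to 22.6). All of these bounds overlapped between the conditions.

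Toward lower values, no member had bounds apart. CR43686 had the largest difference, from 1.22 FPKM in DMSO (bounds 0 to 11.4) to 0.0763 FPKM in 20E (bounds 0 to 1.34). Its locus also holds CrebB-17A, a CREB transcription factor gene, at 71.7 FPKM and 70.4 FPKM, and por at 14.4 FPKM and 12.0 FPKM. CR30009, alone in its locus, was at 3.46 FPKM in DMSO (bounds 2.15 to 4.77) and 1.68 FPKM in 20E (bounds 0.839 to 2.52), so that the bounds overlap by a small margin. After CR32660, given above, CR43951, in the locus of the apoptosis inhibitor gene th, was next in size at 1.47 FPKM (bounds 0 to 6.72) and 0.669 FPKM (bounds 0 to 4.03). CR43916, CR17025 and CR43475 completed the 8 largest differences in this direction together with CR43651, with changes of -0.50, -0.50, -0.49 and -0.54. In their loci th was at 179 FPKM in DMSO and at 161 FPKM in 20E, CG10863 beside CR43916 at 73.9 FPKM and 63.4 FPKM, and loco, a G protein regulator gene, beside CR43475 at 76.6 FPKM and 61.4 FPKM, together with CR43474 at 8.67 FPKM and 6.53 FPKM.

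By the ratio of FPKM + 1, changed genes of any kind were rare near the members. Within 10 kb of its locus 1 of the 108 members (0.926%) had another gene past a ratio of 2 or under 0.5 that reached 1 FPKM, against 2.64% of the 7703 genes. This was CR43951, with CG42716 at 0.387 FPKM in DMSO (bounds 0 to 0.901) and 2.05 FPKM in 20E (bounds 0 to 4.39), which lie 4239 bases apart. No partner in any member's locus that is not itself a CR gene was past either ratio.

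Stem-loops of miRNAs lie in exons of 6 members by RefSeq, all on the strand of the host. Besides mir-282 in CR43626 these are mir-ban in CR43334, mir-277 and mir-34 in CR43459, mir-279 and mir-996 in CR31044, mir-275 in CR43857 and mir-14 in CR43651. An intron holds the stem-loop in 2 further members, mir-252 in CR17025 and mir-31b in CR43836. All of these miRNA genes were listed at 0 in both conditions, and mature miRNAs were not measured in this polyA RNA. The mature sequences encoded by CR43626 and by the hosts of the best known miRNAs are given from RefSeq (Release 6), with the seed (bases 2 to 8), which pairs with targets, in capitals. All are on the plus strand, and the arm (5p or 3p) was set by the position in the stem-loop.
mir-282 5p (CR43626), chr3L:3251038-3251061: uAGCCUCUacuaggcuuugucugu
mir-282 3p (CR43626), chr3L:3251081-3251102: aCAUAGCCuauaagagguuagg
mir-ban 3p (CR43334), chr3L:642259-642281: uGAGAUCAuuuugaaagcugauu
mir-34 5p (CR43459), chr3R:10100952-10100975: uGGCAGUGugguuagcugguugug
mir-277 3p (CR43459), chr3R:10100080-10100102: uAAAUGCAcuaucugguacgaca
mir-279 3p (CR31044), chr3R:29215651-29215672: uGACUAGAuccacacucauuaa
mir-996 3p (CR31044), chr3R:29217244-29217265: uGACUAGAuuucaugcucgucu

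The 3p miRNAs of mir-279 and mir-996, which lie in the same host, have the seed GACUAGA in common, and the other 5 shown differ in theirs. Among the hosts CR43334, the precursor of bantam, a miRNA known to promote growth and block apoptosis, was at 28.1 FPKM in DMSO (bounds 19.0 to 37.3) and 29.6 FPKM in 20E (bounds 20.1 to 39.1). Its locus also holds CR43423 at 11.4 FPKM (bounds 0 to 28.2) and 12.6 FPKM (bounds 0 to 31.5). RefSeq places CR43423 on the opposite strand inside the span of CR43334, so how fragments were divided between them is uncertain. CR43459, host of mir-34 and mir-277 by RefSeq, was at 14.5 FPKM (bounds 9.09 to 20.0) and 10.6 FPKM (bounds 6.57 to 14.6). Its deposited locus holds mir-277 but not mir-34, so this level is of a model that does not contain mir-34. CR31044 was at 2.68 FPKM (bounds 1.66 to 3.69) and 3.23 FPKM (bounds 2.14 to 4.32). The bounds of each of these hosts overlapped between the conditions. CR43857 was at 1.69 FPKM (bounds 0.887 to 2.49) and 2.27 FPKM (bounds 1.30 to 3.24). CR43651, host of mir-14, a miRNA known to act on the ecdysone receptor mRNA, was at 1.35 FPKM (bounds 0.551 to 2.15) and 0.611 FPKM (bounds 0.0734 to 1.15). In DMSO the bounds of CR43626, CR43334 and CR43459, the highest of the 6, overlapped one another, and in 20E CR43626 lay above the 5 others with bounds apart.

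**Figure D5:**
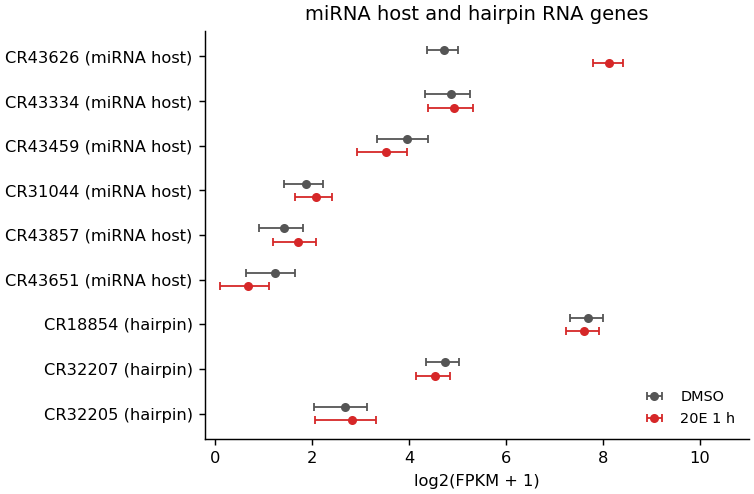
Level of the 6 members that carry a miRNA stem-loop in an exon and of the 3 hairpin RNAs, as log2(FPKM + 1) in DMSO (grey) and 20E (red), with bars from the lower to the upper bound. Only CR43626 has bars that do not overlap, at 25.6 FPKM in DMSO against 279 FPKM in 20E.

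The hairpin RNAs had bounds above 0 throughout and differed little between the conditions. CR18854, given above, had the highest level. CR32207 was at 25.6 FPKM in DMSO (bounds 19.3 to 31.8) and 22.3 FPKM in 20E (bounds 16.7 to 27.8). CR32205 was at 5.43 FPKM (bounds 3.13 to 7.74) and 6.08 FPKM (bounds 3.17 to 8.999). These last 2 genes share 50-base words with each other and with neighbouring genes on 3L, so that how their fragments were divided is also uncertain.

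Of the 40 antisense RNAs, 39 share a deposited locus, and 25 have at least 50% of their exon bases opposite to exons of another gene in RefSeq. Their median share of such bases was 69.3%. The partner with the most shared exon bases was measured for 38 of them, and 26 of these were lower than that partner in DMSO. Among these 26, the widest gap in DMSO by ratio was that of CR43916, at 1.07 FPKM against 73.9 FPKM of CG10863. CR43430 was at 4.88 FPKM against 170 FPKM of hts, the adducin gene. At higher levels, CR31144 was at 98.9 FPKM against 1847 FPKM of RpL3 (bounds 1415 to 2280), which was at 1920 FPKM in 20E. CR43868 was at 43.6 FPKM in DMSO and CG10638 at 150 FPKM (bounds 117 to 183), with 175 FPKM in 20E. Others stood at a like level with the partner, such as CR43944 at 27.5 FPKM (bounds 16.5 to 38.5) and fbl, a pantothenate kinase gene, at 25.2 FPKM (bounds 16.2 to 34.2). CR43628 was at 30.7 FPKM (bounds 17.9 to 43.6) and Rga, a gene of the CCR4-NOT complex, at 38.0 FPKM (bounds 28.5 to 47.5). Some stood above the partner, such as CR43463 at 16.3 FPKM (bounds 12.4 to 20.3) and Pgant35A at 0.528 FPKM (bounds 0 to 1.32). CR43957 overlaps ci, the Hedgehog pathway factor, by 53 exon bases, and was at 25.2 FPKM (bounds 18.7 to 31.8), with ci at 0.0796 FPKM (bounds 0 to 0.252). None of the 38 partners differed by more than 1 on the log2(FPKM + 1) scale, and of the 40 antisense RNAs 0 were past a ratio of 2 or under 0.5 (0.597% and 0.0649% of the 7703 genes were). In 20E 18 of the 40 were higher, against 50.9% of the 7703 genes.

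The table lists more than 1 transcript for 37 members, and in some of these the transcripts went different ways under a stable sum. For CR42549, at 20.2 FPKM in DMSO (bounds 10.8 to 29.7) and 18.9 FPKM in 20E (bounds 10.5 to 27.3), 1 transcript was listed at 5.90 FPKM and 0, and another at 12.9 FPKM and 17.9 FPKM. The 2 transcripts of the pseudogene CR42875 were at 1.77 FPKM and 3.75 FPKM for the one and 2.88 FPKM and 0.577 FPKM for the other, with 4.65 FPKM and 4.33 FPKM in sum. CR43836, with mir-31b in an intron, had 1 transcript at 3.21 FPKM in DMSO against 1.06 FPKM in 20E and another at 0.431 FPKM and 1.72 FPKM. The table of transcripts gives no bounds.

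Noncoding RNA genes with other names served as a comparison. Of 24 listed, 20 are in the table and 14 reached 1 FPKM, and 0 of the 20 were past a ratio of 2 or under 0.5 or had bounds apart. Over the 7703 genes 0.597% were past a ratio of 2 and 0.0649% under 0.5. Bounds were apart with the higher value in 20E for 0.831% and with the lower for 0.143%. At such shares a count of 0 in so short a list says nothing about a difference from the CR genes. The dosage compensation RNA roX2 was at 135 FPKM in DMSO (bounds 102 to 168) and 132 FPKM in 20E (bounds 98.8 to 166), and roX1 at 0.549 FPKM and 0.301 FPKM. Hsromega, the heat shock lncRNA, was at 95.9 FPKM (bounds 74.5 to 117) and 83.2 FPKM (bounds 64.6 to 102). RNaseP:RNA was at 135 FPKM with wide bounds (0 to 406) in DMSO, and at 150 FPKM (bounds 0 to 452) in 20E. The RNA of the signal recognition particle, 7SLRNA:CR32864, was at 159 FPKM (bounds 118 to 200) and 202 FPKM (bounds 151 to 252). In DMSO CR43264, CR42862, CR40469 and CR43883 lay above roX2, Hsromega and 7SLRNA:CR32864 with bounds apart, but of these 4 only CR43264 had bounds apart from those of RNaseP:RNA.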

How the data were processed

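RNA-seq of S2 cells treated with DMSO or 20E (0.3 μM, 1 h) was analysed, with 2 libraries per condition by the labels. The remaining 49 samples of the series were not used here. Deposited by the authors were FPKM values with a lower and an upper bound for 15598 genes, and FPKM for 28704 transcripts, in 1 column per condition. The columns are those of Cufflinks and Cuffdiff output, and how the libraries entered a column is not given in the sources used here. The authors' fold changes, test statistics, p-values and q-values, also in the tables, were not used. The submitters' processing notes name TopHat2 and list dm6 and dm3. The table has 254 genes on arms such as XHet and U, absent from Release 6, so its positions (shifted to count from 1) and RefSeq positions were kept apart and genes joined by identifier or CR number. Depth is unknown.

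The change was log2 of (FPKM in 20E + 1) over (FPKM in DMSO + 1), and ratios above 2 or under 0.5 and bounds apart were counted. No p-value was computed, because the table has no replicate columns. How the counting rules behave at the low levels and wide bounds of many members was not tested. RefSeq (Release 6) gave biotypes, lengths, overlaps, stem-loops, 300-base promoter windows and 50-base words found more than once in the genome.

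Members and lists were chosen with earlier results of these data known. Named were CR43626, CR43701 and CR43708, the 12 highest members, the 8 largest changes each way, members past a ratio of 2 or under 0.5, members above 10 FPKM with bounds apart (3 found), and 3 members on either side of the limit, each with its locus partners at 1 FPKM or more. Any other gene was chosen as an example after its values were seen. Alternatives were the pseudocount, scaling, ratio and FPKM limits, the transcript table and subsets of members. Python 3.11.15, NumPy 2.4.6, pandas 2.3.3, Biopython and Matplotlib 3.10.9 were used.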

Additional observations from a re-analysis of the deposited data

How the results depend on the processing

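Of 48 alternative values, 34 stayed within 1.5 times the value in the report. Only the median change can have a sign, and none of its alternatives had the opposite one. The number of members at less than 0.5 times their DMSO level, 1, went to 6 with a pseudocount of 0.1, to 6 without one, to 3 at a ratio of 1.5 (its reciprocal), to 5 in the transcript table, and to 0 at 5 FPKM or more. Counting only the 24 members alone in their locus gave 0 lower members, 0 higher members in place of 6, and 0 with bounds apart in place of 3, since CR43626, CR43701 and CR43708 all share one. Leaving out members of at most 120 bases (CR43701 and CR43708), a choice made after seeing the data, left 1 member with bounds apart. The median change was -0.017 at 5 FPKM or more, -0.034 in the transcript table and 0 over all 622 CR genes, most of which are listed at 0. The number of expressed CR genes, 108, was 67 at 5 FPKM and 69 with a lower bound above 0 in a condition. Summing the repeated pairs of members, also chosen after seeing the data, gave 5 higher members in place of 6, because CR34335 is then counted with CR40469. No paired analysis was possible because the table holds 1 column per condition, and leaving out each replicate was not run for the same reason. Depth is unknown, and for the 39 members with a lower bound of 0 in both conditions no difference could be shown by the bounds.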
